A study of Mus musculus with 6 samples.

Results

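The inhibitory receptors of B cells and the phosphatases they recruit were followed in B220+CD43+ cells sorted from mouse bone marrow, on arrays labelled Fnip1-null and arrays labelled wild type. The group holds 10 genes chosen by function: the receptor genes Cd22, Siglecg, Fcgr2b, Cd72, Pirb, Lair1, Cd5 and Fcrl1, and the phosphatase genes Ptpn6 and Inpp5d. Of these, 9 genes had at least 1 probe on the array, 22 probes in all out of 45281. A detection p under 0.05 was required on 3 or more of the 6 arrays, which 17 of these probes met, for 8 genes, out of 18172 probes for 9679 named genes that were tested. No probe of the annotation used carried the name Pirb, and the single Cd5 probe was not detected on any array.

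A B cell is held back from responding by receptors that carry short tyrosine motifs, called ITIMs, in their cytoplasmic tails. When a Src-family kinase phosphorylates such a motif, the tail binds a phosphatase: SHP-1 (Ptpn6), which removes phosphate from signalling proteins, or SHIP-1 (Inpp5d), which removes phosphate from the membrane lipid made by phosphoinositide 3-kinase. In the B lineage CD22, CD72 and the inhibitory Fc receptor are known to become more abundant as cells pass from the progenitor to the immature and mature stages.

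The labels give the genotypes as Fnip 1 -/- (3 samples) and Wt (3 samples), and both groups as sorted bone marrow cells that the labels call pre-B cells. The Fnip1 product binds folliculin and takes part in nutrient and energy sensing. The deposited column headers mark the Fnip1-null arrays LPAB - Yugioh KO, a name that no source used explains. The sources used state neither the kind of change made to Fnip1 nor the strain and age of the mice, and nothing says whether a sample is 1 animal or a pool, so p-values measure only how these samples spread, which may be technical. Each sample was hybridised to a single-colour Illumina BeadChip array, and the 3 arrays under each label go by the letters A, B and C.

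Array medians lay between 40.5 and 44.3 intensity units, between 17442 and 18294 probes were detected per array, and 3 arrays per group limit the precision. All values below are normalized log2 intensities unless stated, and a call is a limma adjusted p under 0.05 over all tested probes. Fnip1 itself was higher where the label says Fnip1-null: its brightest probe averaged 10.01 ± 0.04 on those arrays and 9.06 ± 0.14 on the arrays labelled wild type (SD, n = 3 each, log2 difference 0.95, limma adjusted p = 0.000665). Where its probes lie relative to the change is not stated in any source used, so the transcript does not check the labels, and each direction below is that of the arrays as labelled. Among all tested genes 508 were called lower on the arrays labelled Fnip1-null (5.25%) and 761 higher (7.86%). Leaving out the null-labelled array B gave 303 and 454, and leaving out the wild-type-labelled array B gave 325 and 481.

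Of the B-lineage markers followed beside these genes, Cd79b, Vpreb1, Igll1, Ebf1, Blnk, Ptprc and Spn were detected on all 6 arrays, while Pax5 was detected on none and no probe of the annotation used carried the name Cd79a.

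Of the 6 tested receptor genes 5 were called lower under the Fnip1-null label and 1 did not pass, and in each of the 5 all arrays labelled Fnip1-null lay below all arrays labelled wild type. Among all tested genes 5.25% were called lower and 14.9% were separated in this direction. The fall was steepest for Cd22, followed by Siglecg, Fcgr2b, Cd72 and Fcrl1. Of the 17 tested probes of all members 11 were called lower, against 6.51% of all tested probes. These 11 are all the tested probes of the 5 genes. As the 5 genes were picked by the call of their brightest probe, this is a description. The median difference over the 6 receptor genes was -0.87 on the log2 scale, and over all tested genes 0.01. The count of 5 and this median include Fcrl1, whose product is known to carry motifs of the activating kind. In bulk RNA, fewer cells of a type and less RNA per cell cannot be told apart.

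**Figure D1:**
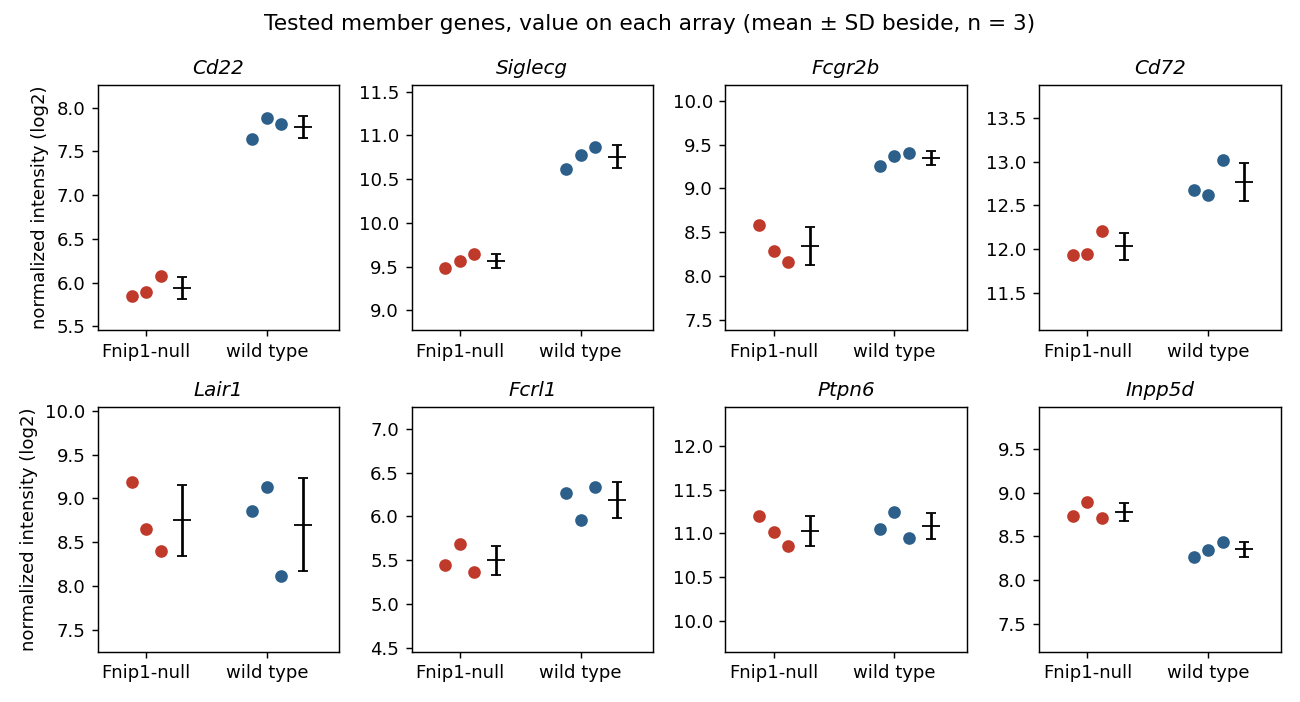
Normalized log2 intensity on each array for the 8 tested member genes, each by its brightest probe, with arrays labelled Fnip1-null on the left (red) and wild type on the right (blue), and the mean ± SD of 3 arrays beside the points. Every panel spans the same range of log2 units. The groups are apart for Cd22, Siglecg, Fcgr2b, Cd72 and Fcrl1 (lower) and Inpp5d (higher), and overlap for Lair1 and Ptpn6.

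CD22 and Siglec-G, the gene products of Cd22 and Siglecg, are lectins of the B cell surface that bind sialic acid and damp signals of the B cell receptor. The brightest Cd22 probe (ILMN_3159170) read 5.84, 5.89 and 6.08 on the arrays labelled Fnip1-null, against 7.64, 7.88 and 7.81 on those labelled wild type. The highest array labelled Fnip1-null thus stayed more than 1 log2 unit under the lowest wild-type array. Cd22 averaged 5.94 ± 0.12 on the arrays labelled Fnip1-null and 7.77 ± 0.12 on those labelled wild type (SD, n = 3 each), a log2 difference of -1.84 (SE 0.12), or 3.58-fold lower (95% interval 2.99 to 4.29, limma adjusted p = 1.73e-05). The size of this difference varied with the processing. It stood at -1.41 with an offset of 50 and at -2.18 with the authors' processed values, called in both. Both lie outside the log2 interval of -2.10 to -1.58. Counted from the most negative difference, Cd22 ranked 21 of the 9679 tested genes.

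Another Cd22 probe (ILMN_1221913) read 4.66, 4.47 and 5.15 on the arrays labelled Fnip1-null, against 5.78, 6.20 and 6.01 on those labelled wild type. It was detected on 1 of the 3 arrays labelled Fnip1-null and on all 3 wild-type arrays, with a log2 difference of -1.23 (limma adjusted p = 0.0027). This value rests on readings near background and stood at -0.67 with an offset of 50 and at -2.33 with the authors' processed values, called in both. The remaining Cd22 probe was not detected on any array. Both tested probes of the gene were called lower.

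For Siglecg the brightest probe (ILMN_2648454) read 9.48, 9.56 and 9.65 on the arrays labelled Fnip1-null, against 10.61, 10.78 and 10.87 on those labelled wild type. The groups did not overlap, and the spread within each was small, with means of 9.56 ± 0.08 and 10.75 ± 0.13 on the arrays labelled Fnip1-null and wild type (SD, n = 3 each). Siglecg was 2.28-fold lower (95% interval 1.92 to 2.72, log2 difference -1.19, SE 0.11, limma adjusted p = 0.000205). Its other probe (ILMN_1221224) read 7.85, 7.95 and 7.93 on the arrays labelled Fnip1-null, against 9.06, 9.27 and 9.56 on the wild-type arrays, a log2 difference of -1.39 (SE 0.14). Both genes lie on chromosome 7, as do Lair1, which did not pass, and Pirb, which was not measured.

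Fcgr2b encodes the inhibitory receptor for the Fc part of IgG, which acts through SHIP-1 when immune complexes bind it together with the B cell receptor. Its brightest probe (ILMN_1228657) read 8.58, 8.28 and 8.16 on the arrays labelled Fnip1-null, against 9.26, 9.37 and 9.41 on those labelled wild type. The fall was 2.01-fold (95% interval 1.65 to 2.46, log2 difference -1.01, SE 0.13, limma adjusted p = 0.00119). The other probes of the gene named ILMN_3102376, ILMN_3029178 and ILMN_2447970 had log2 differences of -1.02, -1.09 and -0.61, each called, and the remaining probe was not detected on any array. The smallest of these differences came from ILMN_2447970, which lay close to background and read between 4.81 and 5.04 on the arrays labelled Fnip1-null and between 5.35 and 5.57 on those labelled wild type.

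The activating Fc receptor genes were measured on the same arrays. Fcgr3, whose protein carries an extracellular part much like that of the inhibitory receptor, read 7.40, 7.35 and 7.04 on the arrays labelled Fnip1-null and 7.49, 7.62 and 7.12 on those labelled wild type, and did not pass (log2 difference -0.14, limma adjusted p = 0.596). Fcgr1, detected on 1 of the 3 arrays labelled Fnip1-null and on all 3 wild-type arrays, had a difference of -0.41 and did not pass (limma adjusted p = 0.313). Neither did Fcgr4 (0.12) nor Fcer1g (0.14), which encodes the signalling chain of the activating receptors. Within an array, Fcgr2b over Fcgr3 was 0.86 log2 units lower on average on the arrays labelled Fnip1-null, with no overlap between the groups. This ratio and that of Cd22 over Ptpn6 were chosen after the values were seen, and each gave an exact two-sided permutation p = 0.1 (0.1 after adjustment over these 2 ratios), the smallest that 3 arrays against 3 allow.

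Cd72 encodes a C-type lectin of B cells whose tail binds SHP-1. Its only probe read 11.94, 11.95 and 12.21 on the arrays labelled Fnip1-null, against 12.68, 12.62 and 13.02 on those labelled wild type. The groups did not overlap, with a gap of about the same size as the spread within a group. Cd72 was 1.67-fold lower (95% interval 1.34 to 2.07, log2 difference -0.74, SE 0.14, limma adjusted p = 0.00831).

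Fcrl1, an Fc receptor-like gene of the B lineage whose product is known to carry motifs of the activating kind, was read close to background. Its brightest probe (ILMN_2608151) read 5.44, 5.68 and 5.37 on the arrays labelled Fnip1-null, against 6.27, 5.96 and 6.34 on those labelled wild type. The log2 difference was -0.69 (SE 0.14, limma adjusted p = 0.0108), and that of the other tested probe (ILMN_1231858) was -0.70 (limma adjusted p = 0.0114). All arrays labelled Fnip1-null lay below all wild-type arrays for both probes, and the remaining probe was not detected on any array. With an offset of 50 the difference of Fcrl1 stood at -0.43, still called.

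Lair1 encodes a collagen receptor with ITIMs that is found on many leukocytes, myeloid cells among them. Its brightest probe (ILMN_1219102) read 9.19, 8.66 and 8.40 on the arrays labelled Fnip1-null, against 8.86, 9.13 and 8.11 on those labelled wild type. The groups overlapped, and the spread within them was the widest of any tested member gene. The SD was 0.40 on the arrays labelled Fnip1-null and 0.53 on the wild-type arrays (n = 3 each). The log2 difference was 0.05 with a 95% interval from -0.56 to 0.66 (limma adjusted p = 0.934), which spans changes in both directions. The other tested probes had differences of 0.13 and -0.12, and the remaining one was not detected on any array. The sign for the brightest probe turned on leaving out the null-labelled array A (-0.17) or the wild-type-labelled array C (-0.25).

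Over the neutrophil and monocyte markers 2 of 10 tested genes, Ctsg (-1.05) and Cd14 (-0.61), were called lower and none higher, and the summed linear intensity ranged from 15107 to 34771 on the arrays labelled Fnip1-null and from 14101 to 23936 on those labelled wild type. These sums rest mostly on the brightest probes, among them S100a8, which was not called. S100a8 read 14.02, 12.34 and 12.51 on the arrays labelled Fnip1-null, against 13.19, 13.02 and 11.96 on those labelled wild type. The share of this list called lower was 20%, against 5.25% of all tested genes. Itgam of this list was not detected on any array. Ctsg lost its call without the null-labelled array B (-0.92), and Cd14 without the null-labelled B (-0.51) or C (-0.55) or the wild-type-labelled A (-0.69), B (-0.45) or C (-0.67). The part of such cells in the Lair1 values was not tested.

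Cd5, which encodes a scavenger-receptor family protein of T cells and of a subset of B cells, read between 4.27 and 4.34 on the arrays labelled Fnip1-null and between 4.36 and 4.46 on those labelled wild type. These values lie at background, with detection p-values between 0.198 and 0.762, and no fold is given.

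The phosphatase genes did not share the fall of the receptors. Ptpn6 did not pass the test, and Inpp5d was called higher under the Fnip1-null label. The brightest Ptpn6 probe (ILMN_1220996) read 11.20, 11.02 and 10.85 on the arrays labelled Fnip1-null, against 11.05, 11.24 and 10.95 on those labelled wild type. The groups overlapped, and the log2 difference was -0.06 (95% interval -0.35 to 0.23, limma adjusted p = 0.818). Its sign turned on leaving out the null-labelled array C (0.028) or the wild-type-labelled array B (0.022). The other Ptpn6 probe (ILMN_3113420) had a log2 difference of -0.22 (95% interval -0.52 to 0.07, limma adjusted p = 0.306). These intervals leave room for a small change but do not reach the differences of Cd22 or Siglecg.

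The single Inpp5d probe (ILMN_2959191) read 8.73, 8.90 and 8.71 on the arrays labelled Fnip1-null, against 8.27, 8.35 and 8.44 on those labelled wild type. All arrays labelled Fnip1-null lay above all wild-type arrays, a separation found for 18.1% of tested genes in this direction. Its single probe was called higher, as were 7.70% of all tested probes. The rise was 1.34-fold (95% interval 1.14 to 1.59, log2 difference 0.43, SE 0.11, limma adjusted p = 0.0293). The Inpp5d call was lost on leaving out any null-labelled array (limma adjusted p = 0.0505 without A, 0.104 without B and 0.0542 without C) or the wild-type-labelled A (0.0865) or B (0.0875), with differences between 0.37 and 0.46. It was also lost with the authors' processed values (0.0528).

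**Figure D2:**
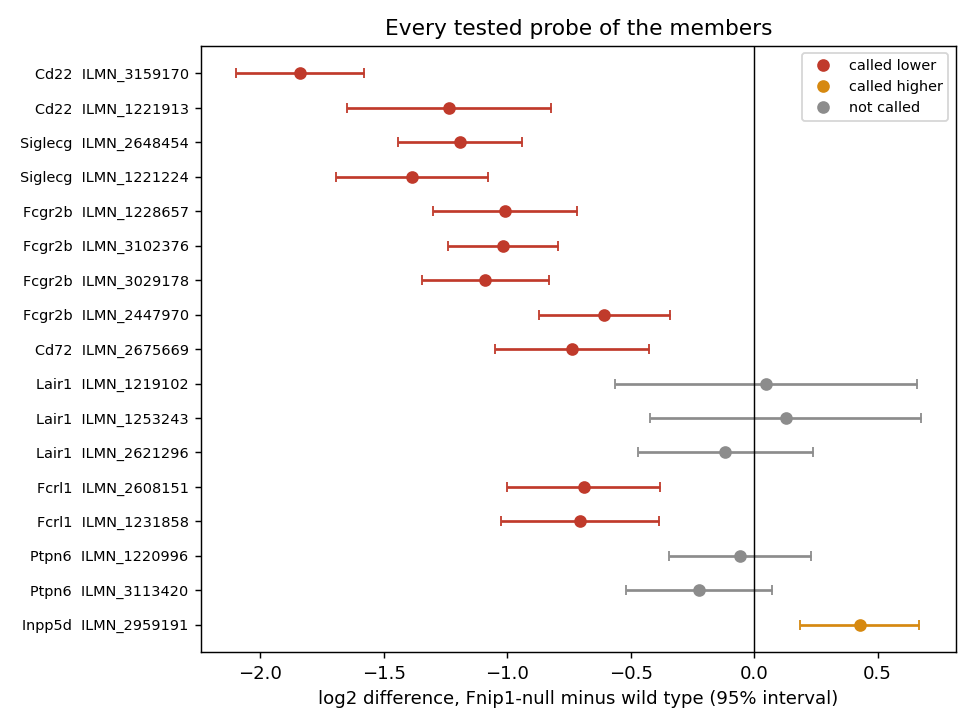
Log2 difference (Fnip1-null minus wild type) with its 95% interval from limma for each of the 17 tested probes of the members, named by gene and probe, coloured by call. All 11 probes of Cd22, Siglecg, Fcgr2b, Cd72 and Fcrl1 lie below 0 with intervals that do not reach it, the 5 probes of Lair1 and Ptpn6 have intervals across 0, and Inpp5d lies above it.

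Set among all tested genes, 0.568% of genes had a more negative difference than Siglecg, 0.94% than Fcgr2b, 2.03% than Cd72 and 2.33% than Fcrl1. Ptpn6 and Lair1 stood in the middle, with 38.5% and 55.8% of genes below them. For Inpp5d the share was 91.4%. The members were chosen by function with earlier results of these data known, so these ranks are a description.

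**Figure D3:**
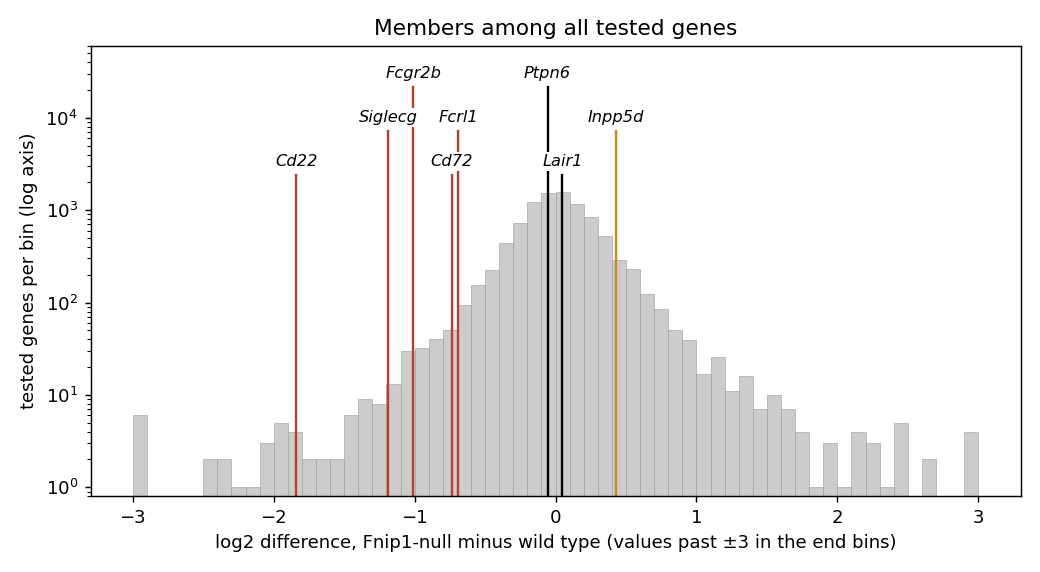
Distribution of the log2 difference (Fnip1-null minus wild type) over the 9679 tested genes in bins of 0.1, on a log count axis, with lines at the 8 tested members. The 5 receptor genes called lower (red) lie in the left tail, Lair1 and Ptpn6 (black) near the centre and Inpp5d (orange) on the right flank.

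The promoters of 3 of the genes called lower and of Inpp5d are shown because they hold a motif of a B-lineage or myeloid regulator close to the start site. The sequences are those of RefSeq on build GRCm38 (patch 6), 300 bases each, from 250 before the start site to 50 after it, 5′ to 3′ on the strand of the gene. Capitals mark every match, on either strand, to AGGAAGT (ETS family, PU.1 among them), TCCC and GGGA with any 2 bases between them (EBF1), CAGGTG (E2A), CACGTG (the MiT/TFE family) or ATTTGCAT (the octamer). No marked matches overlap.
Cd22, chr7:30878979-30879278, minus strand: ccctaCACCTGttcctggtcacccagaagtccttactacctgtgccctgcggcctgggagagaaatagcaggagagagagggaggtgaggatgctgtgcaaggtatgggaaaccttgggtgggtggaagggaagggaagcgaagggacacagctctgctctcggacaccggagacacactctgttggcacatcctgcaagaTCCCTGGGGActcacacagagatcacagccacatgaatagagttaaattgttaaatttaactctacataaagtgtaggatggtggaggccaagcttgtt
Cd72, chr4:43454577-43454876, minus strand: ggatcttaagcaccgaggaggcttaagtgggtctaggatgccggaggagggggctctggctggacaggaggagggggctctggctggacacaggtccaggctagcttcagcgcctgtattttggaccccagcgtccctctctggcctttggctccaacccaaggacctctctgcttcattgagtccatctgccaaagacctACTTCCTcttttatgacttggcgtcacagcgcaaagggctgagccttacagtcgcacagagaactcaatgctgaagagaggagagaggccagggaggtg
Fcrl1, chr3:87376137-87376436, plus strand: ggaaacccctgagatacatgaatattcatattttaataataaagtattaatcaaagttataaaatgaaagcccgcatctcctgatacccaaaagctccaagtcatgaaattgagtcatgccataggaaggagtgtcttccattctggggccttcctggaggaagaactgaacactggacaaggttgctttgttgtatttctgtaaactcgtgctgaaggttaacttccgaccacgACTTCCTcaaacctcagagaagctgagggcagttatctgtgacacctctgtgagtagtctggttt
Inpp5d, chr1:87620062-87620361, plus strand: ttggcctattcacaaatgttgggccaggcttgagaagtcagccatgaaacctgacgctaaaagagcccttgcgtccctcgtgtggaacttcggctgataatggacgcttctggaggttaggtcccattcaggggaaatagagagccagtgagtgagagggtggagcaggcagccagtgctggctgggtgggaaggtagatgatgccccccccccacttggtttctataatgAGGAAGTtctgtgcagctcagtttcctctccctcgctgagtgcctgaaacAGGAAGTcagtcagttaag

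In the Cd22 window the match to the EBF1 motif lies from base -49 to -40 counted from the start site, and the motif is found in 0.904% of the 32851 promoters of the same length. The ETS motif stands at -49 to -43 in Cd72, at -15 to -9 in Fcrl1 and at -19 to -13 and 32 to 38 in Inpp5d. It is found in 6 of the 10 members (also Pirb, Cd5 and Ptpn6) and in 9.35% of all promoters. Of these 6 genes, Cd72, Fcrl1, Ptpn6 and Inpp5d have a tested difference. The E2A motif is found in 4 members (Cd22, Pirb, Cd5 and Ptpn6) and in 20.2% of all promoters. The MiT/TFE and octamer letters, found in 7.15% and 1.74% of promoters, are in none of the 10 windows. Fcgr2b, Siglecg (either of its 2 listed starts) and Lair1 hold none of the 5 motifs. A match is a description of letters, not evidence of binding.

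Ebf1, which encodes the early B cell factor that binds the EBF1 motif, was itself called lower, at a log2 difference of -0.52 (limma adjusted p = 0.0147) and -0.74 by its other tested probe. Ebf1 missed the threshold on leaving out the null-labelled array C (-0.46, limma adjusted p = 0.0531). Whether Ebf1 has a part in the Cd22 difference was not tested.

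Other genes of inhibitory signalling were counted from lists fixed by function, with earlier results known. The counts of each list stand beside 5.25% of all tested genes called lower and 7.86% called higher. Of 17 other tested inhibitory receptor genes of leukocytes 3 were called lower (17.6%) and 1 higher (5.88%), and 13 did not pass. Ceacam1, which encodes an ITIM-bearing adhesion molecule, fell by 0.90 on the log2 scale (limma adjusted p = 0.00705), though its other probe stood at -0.26 and did not pass. Milr1, an inhibitory receptor gene known from mast cells, fell by 0.49, and by 0.61 by its other probe. Fcrla, an Fc receptor-like gene of B cells, is in this list and its count though its product stays inside the cell. It fell by 0.52, with 2 of its 3 other probes called as well. Havcr2, the gene of the inhibitory receptor TIM-3, rose by 0.58, while its other probe stood at 0.09. Fcrla lost its call without the null-labelled A (-0.46) or B (-0.54) or the wild-type-labelled C (-0.42). Havcr2 did so without the null-labelled A (0.50) or B (0.54) or the wild-type-labelled A (0.52) or C (0.57). Pecam1, the gene of an ITIM-bearing adhesion molecule, did not pass by its brightest probe (-0.39), while another was called lower (-0.50). The median difference of this list was -0.16.

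Among the other phosphatases and adaptors 3 of 22 tested genes were called lower (13.6%, against 5.25% of all tested genes) and none higher. The median difference of this list was -0.14. Dok2, which encodes an adaptor that recruits a Ras inhibitor, fell by 1.02 (limma adjusted p = 0.00657). Cblb, a ubiquitin ligase gene, fell by 0.56 (its other probe stood at 0.06), and Ptpn1, a tyrosine phosphatase gene, fell by 0.48. Cblb lost its call without the null-labelled array B (-0.54). Ptpn1 did so without the null-labelled A (-0.44) or B (-0.42) or the wild-type-labelled A (-0.47) or B (-0.40). Ptpn11, the gene of SHP-2, a relative of SHP-1, had a difference of -0.20 and did not pass (limma adjusted p = 0.242). Ptpn12, a tyrosine phosphatase gene, did not pass by its brightest probe (-0.16), while 1 of its 4 other probes was called lower (-0.71).

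The kinase Blk, of the Src family, fell by 1.69 on the log2 scale (limma adjusted p = 0.000162), and its other probes stood at -1.82 and -1.58. Btk, a kinase gene that acts downstream of the B cell receptor, rose by 0.48, but lost its call without the null-labelled A (0.45), B (0.52) or C (0.47) or the wild-type-labelled A (0.39) or B (0.45). The other 4 tested kinase genes did not pass, and no probe carried the name Lyn. Of 16 activating receptors, coreceptors and their adaptors 1 was called lower (6.25%, near the 5.25% of all tested genes) and none higher. That gene, Cd79b, a signalling chain of the B cell receptor, fell by 0.49 (0.51 by its other probe) and lost its call without the null-labelled A (-0.40) or B (-0.51) or the wild-type-labelled A (-0.50) or C (-0.42). Ifitm1 did not pass by its brightest probe (-0.34), while its other probe was called lower (-0.66). The median difference of the activating list was -0.05.

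Ligand genes were mixed. Sema4d, whose product is a ligand of CD72, rose by 0.76 (limma adjusted p = 0.018), and lost this call without the wild-type-labelled A (0.72) or C (0.77). Cmah, the hydroxylase gene that makes the form of sialic acid that mouse CD22 prefers, fell by 0.58 (limma adjusted p = 0.00976), with its other probe at -0.40 and not called. St3gal1, a sialyltransferase gene, fell by 0.44 and lost its call without the null-labelled B (-0.40) or C (-0.37) or the wild-type-labelled A (-0.48), B (-0.36) or C (-0.48). The other 9 of 12 tested genes of this list did not pass, among them St3gal6, a sialyltransferase gene (-0.35), whose other probe was called lower (-0.61).

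Of 12 tested genes of lipid phosphate and calcium output 2 were called lower (16.7%, against 5.25% of all tested genes) and none higher. Dapp1, an adaptor gene whose product binds the lipids that SHIP-1 acts on and forms, fell by 0.46 (its other probe stood at -0.38 and did not pass), and Itpr2, a calcium release channel gene, fell by 0.63. Dapp1 lost its call without the null-labelled B (-0.46) or C (-0.47) or the wild-type-labelled A (-0.40) or B (-0.47). Itpr2 did so without the null-labelled B (-0.58) or C (-0.59) or the wild-type-labelled B (-0.57) or C (-0.51). Stim1, a calcium sensor gene, did not pass by its brightest probe (0.26), while another of its probes was called higher (0.65, limma adjusted p = 0.0113). Plekha1, a lipid-binding adaptor gene, did not pass by its brightest probe (-0.04), while its other probe was called lower (-0.62). The calcium pump gene Atp2b4, linked to CD22 in B cells, had a difference of 0.00 and did not pass (limma adjusted p = 0.992).

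**Figure D4:**
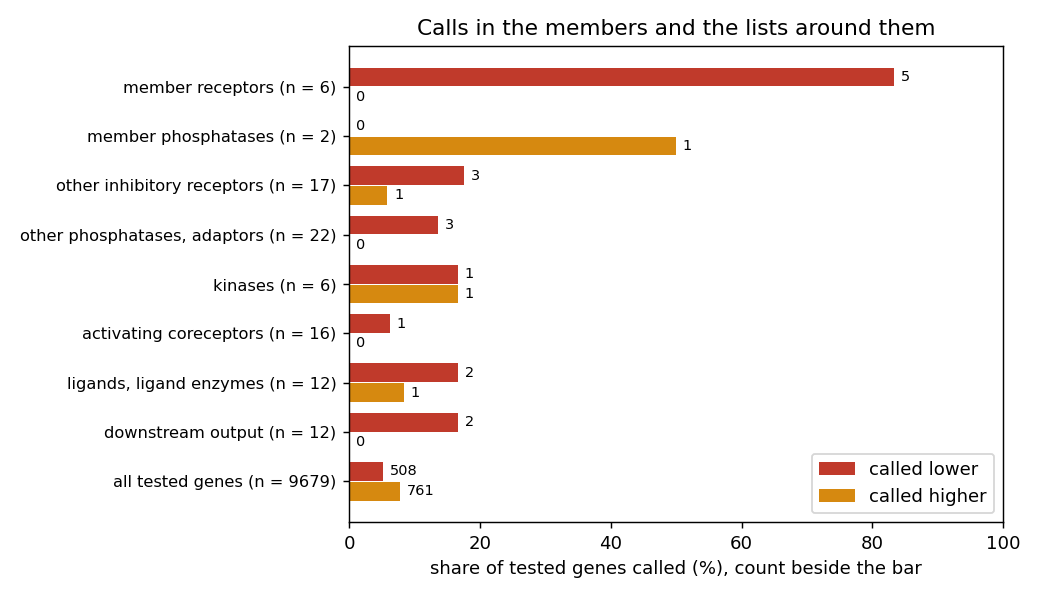
Share of tested genes called lower (red) or higher (orange) in Fnip1-null against wild type, among the members and in the lists around them, with the count beside each bar and the number tested in the label. The member receptors have 5 of 6 called lower, the member phosphatases 0, the other lists between 1 and 3, and all tested genes 508 lower and 761 higher.

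Markers of B-cell stage were counted beside the receptors. Among all tested genes 5.25% were called lower and 7.86% higher. Of 6 tested genes listed as markers of small pre-B cells and immature B cells 4 were called lower and none higher: Cd40 (-2.47), Rag1 (-2.06), Il2ra (-1.77) and Rag2 (-0.69). Whether these genes mark only those stages in the sorted cells was not tested. The other tested markers, Fcer2a (-0.20) and Cd74 (0.10), did not pass. Il2ra was detected on 2 of the 3 arrays labelled Fnip1-null, and its difference stood at -1.06 with an offset of 50 and at -2.86 with the authors' processed values. The summed linear intensity of this list ranged from 6641 to 8189 on the arrays labelled Fnip1-null and from 6219 to 10160 on those labelled wild type, of which the Cd74 probe, not called, gave the larger part. Ms4a1 and Cr2 of this list were not detected on any array. Of the 7 tested B-lineage markers 2 (Ebf1 and Cd79b) were called lower and none higher, and the other 5 had differences between 0.05 and 0.36. This list had sums from 24352 to 28275 on the arrays labelled Fnip1-null and from 23077 to 27993 on those labelled wild type. The part of cell stage in the receptor differences was not tested.

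Of 7 tested genes listed as T cell markers 2 were called higher, Lat (2.42) and Cd3e (1.20), and 2 lower, Cd2 (-1.33) and Thy1 (-0.90). Among all tested genes 7.86% were called higher and 5.25% lower. The summed intensity of the 7 genes ranged from 2277 to 2610 on the arrays labelled Fnip1-null and from 2181 to 2423 on those labelled wild type. Cd8a was not detected on any array. Cd3e lost its call without the wild-type-labelled A (1.10) or C (1.05). Of 7 natural killer cell markers 1 was called lower, Eomes (-0.86), which was detected on 2 of the 3 arrays labelled Fnip1-null and stood at -0.46 with an offset of 50 and at -1.63 with the authors' processed values. Klrk1 (-0.73) and Prf1 (0.01) did not pass, though a dimmer probe of each was called lower (-0.76 and -0.67). The list had sums from 3663 to 5061 on the arrays labelled Fnip1-null and from 4473 to 6432 on the wild-type arrays, and Ncr1 and Gzmb were not detected on any array. Eomes lost its call without the null-labelled array A (-0.75). None of 7 tested genes listed as markers of plasmacytoid dendritic cells was called. Their sums ran from 26544 to 34793 on the arrays labelled Fnip1-null and from 24060 to 32587 on those labelled wild type. Ccr9 was not detected on any array. The single tested erythroid marker, Hba-a1, was not called. Genes of these lists may also be expressed in B-lineage cells, and which cells gave their signal was not tested.

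The genes whose profile over the 6 arrays was most like that of Cd22, by the root mean square difference between centred log2 values over 9671 other tested genes, were Blvrb (0.136), Cpne9 (0.138), Blk (0.163), Il2ra (0.179) and Kcnk13 (0.186). Blvrb, a biliverdin reductase gene, read 9.59, 9.42 and 9.56 on the arrays labelled Fnip1-null, against 11.19, 11.24 and 11.55 on those labelled wild type. Cpne9, a copine gene, and Kcnk13, a potassium channel gene, were detected on none of the arrays labelled Fnip1-null and on all 3 wild-type arrays. Their place in this order rests on background readings under the Fnip1-null label, and their folds are bounds on this scale, at least 2.84-fold lower for Cpne9 and at least 3.00-fold lower for Kcnk13. With an offset of 50 their fitted log2 differences were -0.96 for Cpne9 and -1.10 for Kcnk13, and with the authors' processed values -3.21 for Cpne9 and -4.21 for Kcnk13. The measure mostly follows the size of the group difference, which for the 5 genes ran from -2.00 (Kcnk13) to -1.69 (Blk). On the same measure Siglecg lay at 0.329 from Cd22, Fcgr2b at 0.458, Cd72 at 0.568 and Fcrl1 at 0.616. The order of these members is that of their log2 differences.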

How the data were processed

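Total RNA of 6 samples of sorted mouse bone marrow cells was measured on Illumina BeadChip arrays. Per the file headers, the deposited table holds for each probe and array a signal intensity that is not normalized and a detection p-value. The authors' second deposited table, taken as log2 from its range (no source used states its log base or background step), served as an alternative. The submitters' processing notes name affy with no version. Scanner columns carry the genotype but no replicate number, and all 6 were used.

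Intensities were background-corrected by normexp from the detection p-values (offset 16), quantile normalized and put on a log2 scale (neqc, limma 3.58.1, R 4.3.3). Probes detected at p under 0.05 on at least 3 arrays were fitted with lmFit and eBayes, with Benjamini-Hochberg adjustment over all 18172. A gene is represented by its brightest tested probe. Where a probe was detected on no array of a group, its fold is given as a bound, with that group's values raised to at least each array's lowest detected signal. Where some arrays detected it, their number is given. Of 45281 probes 34885 had 1 symbol in the platform annotation of 2016, 18 had several and 10378 were unnamed here, and symbols were updated through RefSeq gene numbers (34807) or accessions (11). Probes of closely related genes may cross-hybridise. The fit was tested on simulated data. Named genes are all members, the called genes of lowest adjusted p in each list (at most 6), Fnip1, the markers, and the 5 genes most like Cd22. Single other genes (Fcgr1, Fcgr3, Fcgr4, Fcer1g, Ptpn11, Atp2b4, Lyz2, Hba-a1, genes with another probe called and genes without a detected probe) were named after their values were seen. The members and lists were chosen with earlier results of these data known. Alternatives covered background, normalization, filter, probe choice, weights, a sex block, the authors' values and leaving out each array. Sex for that block was inferred from sex-linked transcripts, which typed 1 array under each label as male.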

Additional observations from a re-analysis of the deposited data

How the results depend on the processing

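Of the 5 receptor genes called lower, Cd22, Siglecg, Fcgr2b and Cd72 kept their call and direction under all 18 alternatives, and Fcrl1 under all but one. The count was 5 in every alternative but the replicate block, and stayed at 5 with each array left out. Log2 differences ranged from -2.18 to -1.41 for Cd22, -1.39 to -1.13 for Siglecg, -1.13 to -0.92 for Fcgr2b, -0.83 to -0.61 for Cd72 and -0.98 to -0.43 for Fcrl1. The replicate numbers of the sample titles are on the columns of the authors' processed values only, where same-numbered samples had deviations correlated at 0.171, -0.00318 and 0.228 and not every sample correlated best with its own number, so the numbers are not shown to pair the samples. With the replicate block on those values 4 member genes were called lower and 0 higher, Fcrl1 missed the threshold (-0.98, limma adjusted p = 0.077), and over all genes 251 were lower and 376 higher, against 361 and 548 without the block. The number of member genes called higher (Inpp5d) was 0 with the authors' processed values and between 0 and 1 with 1 array left out, and the difference of Inpp5d stayed between 0.37 and 0.47. With 1 array left out, all genes called lower numbered between 303 and 392 and those called higher between 454 and 563. Lair1 turned to -0.17 with array weights (-0.024 by ILMN_1253243) and ranged from -0.25 to 0.26 with 1 array left out (-0.16 to 0.30 by ILMN_1253243). Ptpn6 ranged from -0.14 to 0.028 with 1 array left out. Of the genes that did not pass, Fcgr4 turned to -0.078 with array weights and ranged from -0.063 to 0.37 with 1 array left out, Fcer1g from -0.036 to 0.24 and Lyz2 from -0.37 to 0.042. Of 27 called genes in the lists 8 kept their call under all alternatives that could test them and 19 lost it in at least 1, with no change of direction. Beside the losses with 1 array left out, Dok2 (limma adjusted p = 0.0703), Milr1 (0.0625) and Rag2 (0.0623) missed the threshold with the replicate block, and Thy1 without a filter (0.0527). Over the alternatives the genes called lower numbered 1 to 4 among the other inhibitory receptors, 0 to 4 among phosphatases and adaptors, 0 to 2 among activating genes, 1 to 3 among ligand genes, 0 to 2 among lipid and calcium genes and 2 to 4 among small pre-B markers. The median of all genes moved by under 0.1 with each scaling. The causes of these changes were not tested. Signals close to background, such as those of Fcrl1, ILMN_1221913 of Cd22 and ILMN_2447970 of Fcgr2b, limit the precision of their differences.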
